A study of Ipomoea batatas with 12 samples.

Results

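The genes described here are those whose identifiers carry the number 12 and a letter from A to E with a running number of 12020 or more, in the deposited gene count table of sweetpotato (Ipomoea batatas) storage roots. The 12 was taken to name a chromosome, the letters its haplotypes (the homologous copies of that chromosome) and running numbers the order of genes, an assumption made because no coordinates were used. Of 7188 identifiers in this range, the 4099 with at least 10 counts summed over the 12 libraries were kept as members, out of 225111 genes in the table. The place where the range starts was chosen from measured differences between the mutant and the wild type in skin, and number 12 was picked with the differences in both tissues known. Values of the mutant against the wild type, and edgeR's calls on them, therefore describe the members and are not read as tests of them. The skin and flesh of the same line were not compared in choosing them, and that comparison was tested.

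The study compared the wild-type line M1-125 (WT) with a natural mutant derived from it (MT). Storage roots of field-grown plants were taken 120 days after planting and divided into flesh and skin, and 3 libraries of polyadenylated RNA were made for each tissue of each line. The 4 groups shared the same treatment, called normal in the labels, and no allele is named for MT. Whether the libraries of a group stem from different plants is not stated, and p-values below therefore refer to the spread among libraries, which may be technical.

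Sweetpotato is a hexaploid, so its chromosomes come in sets of homologous copies and most genes are expected in several near-identical versions. The storage root is a swollen root in which the flesh is mostly storage parenchyma and the skin is the corky outer layer that seals the root and often carries its colour. Reads from near-identical copies can be split among them by the counting, so a value for 1 identifier is uncertain where a close copy exists on another haplotype. Gene names for these identifiers were not found in the sources used here, so neither tissue could be checked against marker genes, and no role is given for any gene below.

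Library totals ran from 17.2 to 20.3 M counts (M, 1e6) in WT flesh, from 15.9 to 18.3 M in MT flesh, from 9.62 to 15.1 M in WT skin and from 8.51 to 10.7 M in MT skin. Levels are in CPM (counts per 1e6 counts of a library, scaled by TMM), and a level per kb is the CPM divided by the gene length in kb. Of the members, 2873 (70.1%) had enough counts to be tested and 1226 did not. The untested members had a median of 29 counts over all libraries and at most 422. They enter no test of the main fit, but they are part of the count shares and of the alternative with no filter on low counts. Haplotype A held 955 members, B 648, C 948, D 750 and E 798, and the last running numbers were 30980, 25340, 32460, 27940 and 28200. The shorter numbering of B means that the far end of the range is made of the other haplotypes, and above 30000 of A and C alone.

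The members took a larger share of all counts in MT than in WT, in skin and in flesh. In skin the share was 2.76%, 2.76% and 2.75% in the WT libraries and 3.10%, 3.08% and 3.07% in the MT libraries. In flesh it was 2.69%, 2.70% and 2.68% in WT and 2.94%, 2.95% and 2.96% in MT. The WT and MT libraries did not overlap in either tissue.

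**Figure D1:**
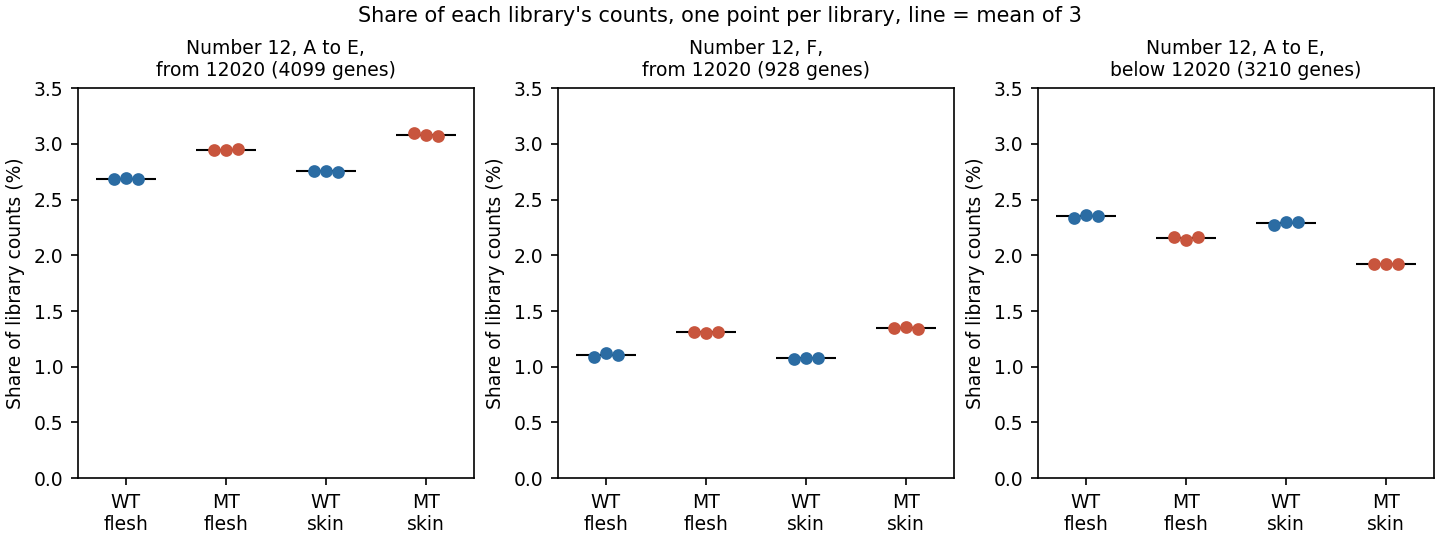
Share of each library's counts in percent, in WT and MT flesh and skin, for the 4099 members (left), the genes of haplotype F in the same range (middle) and the genes of haplotypes A to E below 12020 (right); points are libraries and lines are means of 3. MT lies above WT for the members and for F, and below WT for the genes before 12020.

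The mean share was 1.12 times as high in MT skin as in WT skin, at 3.08% ± 0.0130 against 2.75% ± 0.00619 (SD, n = 3). In flesh the ratio was 1.10, at 2.95% ± 0.00694 against 2.69% ± 0.00633. In bulk tissue, a change in the number of cells that carry a transcript and a change in its amount per cell cannot be told apart.

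Each of the 5 haplotypes had the higher share in MT, and the libraries of the 2 lines did not overlap in any of them in either tissue. Haplotype B stood highest, with MT to WT ratios of 1.22 in skin and 1.15 in flesh. Haplotype A followed in skin at 1.15, while C, D and E lay between 1.08 and 1.09. In flesh the ratios of A, C and D lay between 1.09 and 1.11, and that of E was 1.05. The genes of haplotype F in the same range of running numbers had ratios of 1.26 and 1.18. The genes of haplotypes A to E with running numbers below 12020 had ratios of 0.840 in skin and 0.917 in flesh, so the same numbered haplotypes went the other way in their first part.

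**Figure D2:**
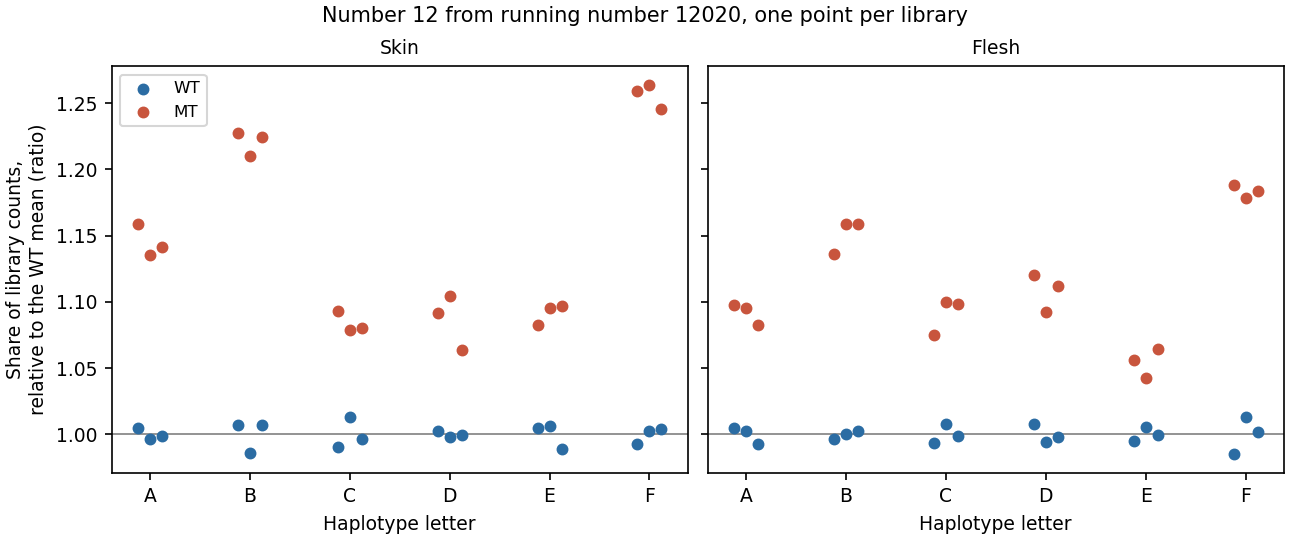
Share of library counts of the genes from 12020 onwards, divided by the mean of the WT libraries of the same tissue, for haplotypes A to F in skin (left) and flesh (right), with 1 point per library. For each of the members' haplotypes, A to E, the 3 MT points lie above the 3 WT points in both tissues, highest for B in skin.

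The share was also taken apart by how strongly the members were counted. The 20 members with the most counts had a ratio of 1.06 in skin and 1.24 in flesh, and the other 4079 had 1.13 in skin and 1.07 in flesh. In flesh the 20 went from 0.353% to 0.438% of the counts and the others from 2.34% to 2.51%, and in skin the 20 went from 0.458% to 0.485% and the others from 2.29% to 2.60%. The many lesser genes thus made up most of the added share in both tissues, although the relative rise in flesh was higher among the 20. When the same range of running numbers was taken from haplotypes A to E of each of the other 14 numbers, the ratio of shares lay between 0.936 and 1.07 in skin and between 0.90 and 1.08 in flesh.

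Per gene the differences were small. The median log2 difference, MT minus WT, over the 2873 tested members was 0.09 in skin and 0.10 in flesh, beside medians of 0.00 in both tissues over all 80351 tested genes. The 715 tested genes of haplotype F in the same range had medians of 0.19 and 0.20. The members' value lay above 0 in 55.0% of cases in skin and 58.7% in flesh, against 48.5% and 49.0% of all tested genes. Taken library by library against the WT mean, the members' median was 0.10, 0.09 and 0.05 in the MT skin libraries and 0.11, 0.08 and 0.10 in the MT flesh libraries. The WT libraries stood between 0.00 and 0.01, held near 0 because their own mean was the reference. At a mean log2 CPM of 3 and above they stood between -0.02 and 0.02. The MT libraries then stood between 0.18 and 0.23 in skin and between 0.14 and 0.17 in flesh. The skin median was 0.04 without MT skin replicate 1 or without MT skin replicate 2, and with library totals in place of TMM the medians were 0.043 in skin and 0.0020 in flesh. Library totals moved the median of all genes too, so that relative to it the members stood at 0.09 in skin and 0.09 in flesh.

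The shift grew with the level of the gene. Members with a mean log2 CPM under 1 had medians of -0.01 in skin and 0.06 in flesh, and those from 1 to 3 had 0.10 and 0.09. Members from 3 to 5 had 0.20 in skin and 0.12 in flesh, and the 154 members at 5 and above had 0.26 and 0.22. All tested genes also leaned upwards at high levels, with 0.09 in skin and 0.04 in flesh at 5 and above, so part of the slope is shared by the table as a whole. Among the 705 members at 3 and above the medians were 0.21 and 0.16, and the same range of the other 14 numbers gave between 0.01 and 0.10 in skin and between -0.06 and 0.03 in flesh.

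**Figure D3:**
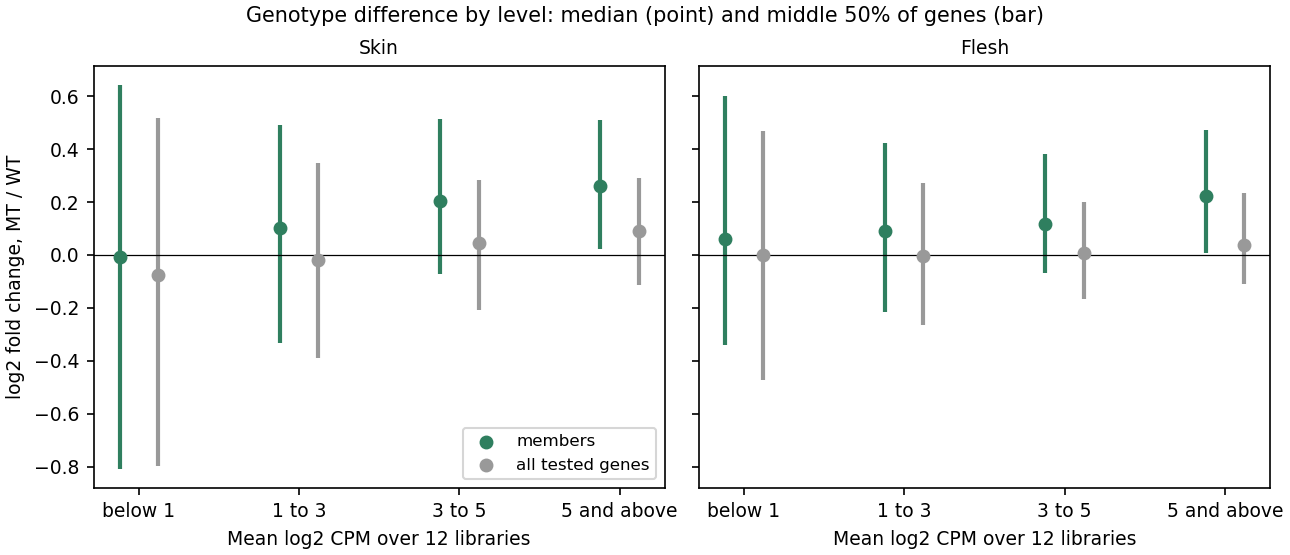
Median log2 difference, MT / WT, (points) with the interquartile range over genes (bars) in skin (left) and flesh (right) for tested members and for all tested genes, by class of mean log2 CPM over the 12 libraries. The members' medians run from -0.01 to 0.26 in skin and from 0.06 to 0.22 in flesh between the lowest and the highest class, above that of all tested genes in each class.

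The medians of the 5 haplotypes differed by less than the spread among the genes of each. Their medians in skin were 0.12 for A, 0.16 for B, 0.09 for C, 0.04 for D and 0.04 for E. In flesh they were 0.10, 0.16, 0.11, 0.11 and 0.05 in the same order. Haplotype B was highest in both tissues, D and E were lowest in skin and E was lowest in flesh, while the interquartile range of each haplotype reached from below 0 to above 0.

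The members were not alike along the running number. The parts given here were chosen after the values had been seen. From 12020 to 17990, 2073 identifiers had a median length of 780 bases and 41.4% of them had no count, and the 551 tested members had medians of 0.00 in skin and 0.00 in flesh. From 18000 to 27990, 4389 identifiers had a median length of 1311 bases and 21.9% had no count, and the 2045 tested members had medians of 0.13 and 0.14. From 28000 onwards the 277 tested members had -0.03 in skin and 0.03 in flesh. The middle part thus held most of the shift over all tested members, and the part nearest to the start of the range was made of shorter and more often silent gene models. Level was not held equal between the parts. At a mean log2 CPM of 3 and above, the windows from 12020, 14000 and 16000 had skin medians of 0.04, 0.36 and 0.02. Their flesh medians were 0.11, 0.22 and -0.02, over 60, 22 and 17 genes.

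Within the middle part, haplotype windows of 2000 running numbers with at least 20 tested members gave a positive median in 21 of 24 cases in skin and 22 of 24 in flesh. The skin medians there ran from -0.35, for haplotype D from 26000, to 0.37, for haplotype B from 24000. The flesh medians ran from -0.05 to 0.35, the highest being that of haplotype A from 22000, whose skin median was 0.36. In the part before 18000, 7 of 13 such windows were positive in skin and 6 of 13 in flesh.

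**Figure D4:**
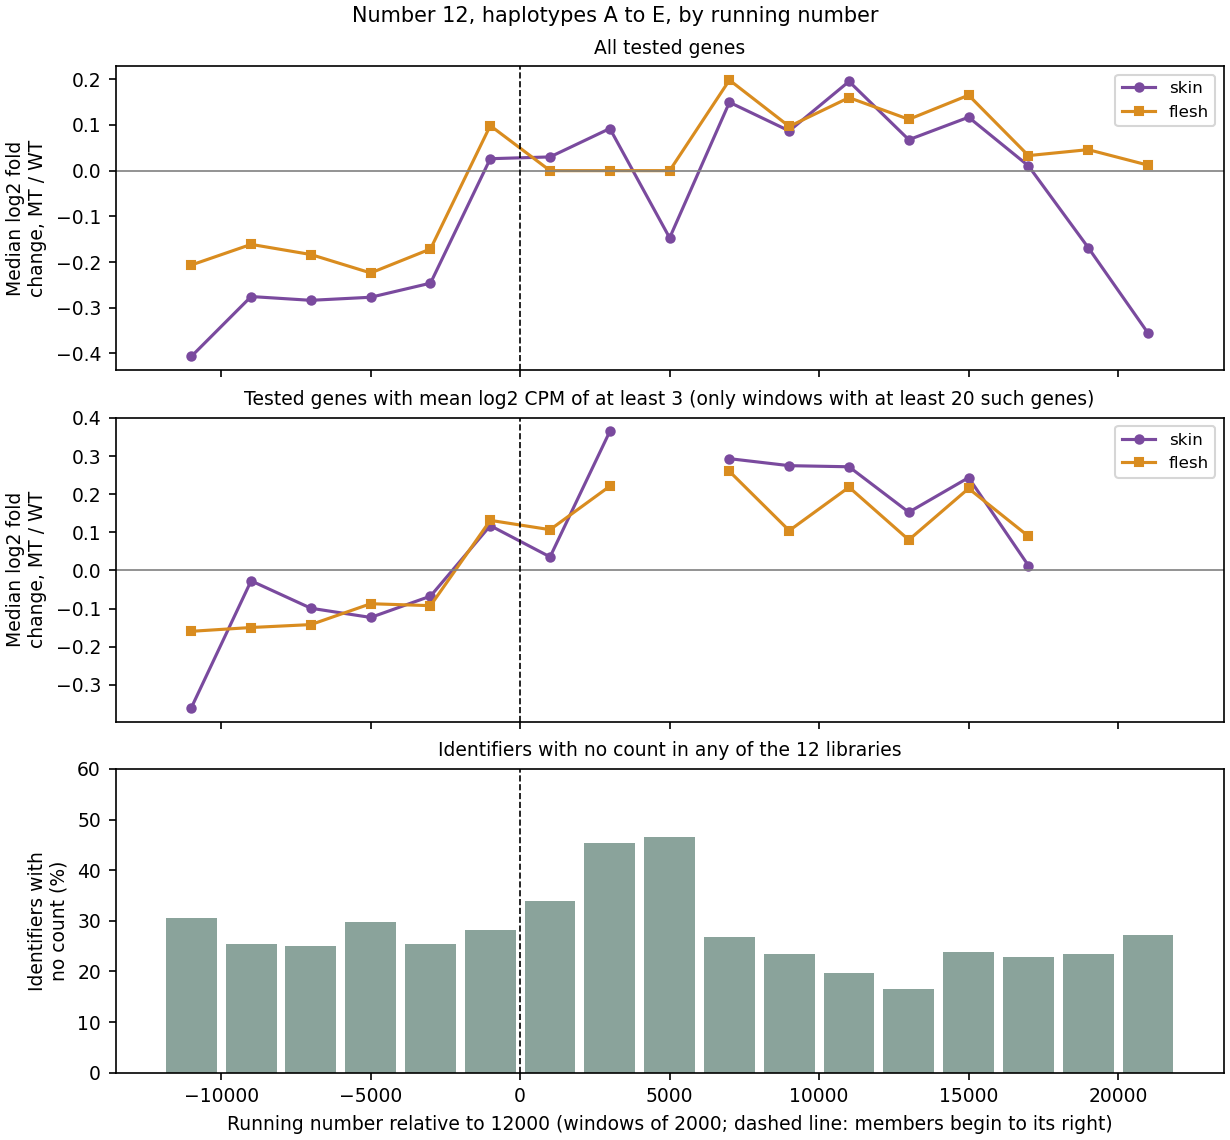
Haplotypes A to E of number 12 in windows of 2000 running numbers, given relative to 12000: median log2 difference, MT / WT, of all tested genes (top) and of those at a mean log2 CPM of 3 and above (middle), and the percent of identifiers with no count (bottom). In the top panel the skin medians of the 5 windows from 18000 to 27990 lie between 0.07 and 0.20, and the last window holds 11 tested members; the bottom panel is highest, at 46.6%, in the window from 16000.

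Across the start at 12020 the medians over tested genes of all levels went up in skin and down in flesh. The last 50 tested genes of each haplotype below it, with running numbers from 9960 to 12010, had medians of 0.00 in skin and 0.09 in flesh. The first 50 of each haplotype from it, reaching to 16480, had 0.09 and 0.00. The calls in skin went the other way, with 14 higher and 7 lower in MT among those last genes and 6 higher and 15 lower among the first. In flesh they were 16 higher and 1 lower before the start and 7 and 1 from it. Each of these sets held 250 genes. Of all tested genes, 3.64% were higher and 3.21% lower in MT skin, and 3.75% and 1.21% in MT flesh. The window from 10000 to 11990, outside the range, held 330 tested genes, with 24 higher and 9 lower in MT skin. Its ratio of count shares was 1.12. The window from 12020 to 13990 held 273 tested genes, with 8 and 15 and a ratio of 0.922. In flesh the first of these windows held 26 higher and 1 lower and the second 9 and 1. At a mean log2 CPM of 3 and above, the first window had medians of 0.12 in skin and 0.13 in flesh, over 72 genes. The second had 0.04 and 0.11, over 60 genes, so at this level the skin median went down as well. At the limit of 10 counts, 217 members had 10 to 14 counts in all and 384 genes left out had 5 to 9, and none of either was tested.

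Single genes called by edgeR (quasi-likelihood test, adjusted p under 0.05 after Benjamini-Hochberg) were counted, and the counts are given as a description, since the range was placed on these contrasts. In skin 219 members (7.62%) were higher in MT, where 3.64% of all tested genes were, and 80 (2.78%) were lower, where 3.21% were. In flesh 165 members (5.74%) were higher, where 3.75% of all tested genes were, and 24 (0.835%) were lower, where 1.21% were. By haplotype from A to E, 8.70%, 9.23%, 6.41%, 6.84% and 7.13% of the tested members were higher in MT skin. In MT flesh 5.94%, 9.01%, 3.82%, 6.64% and 4.28% were higher, so C and E lay close to the 3.75% of all tested genes. The middle part held 180 of the 219 and 138 of the 165, beside 2045 of the 2873 tested members. The skin counts were 139 higher without WT skin replicate 1 and 48 lower without WT skin replicate 2. The count lower in flesh was 13 without WT flesh replicate 2 and 14, 13 and 11 without MT flesh replicates 1, 2 and 3. With library totals the flesh counts were 135 higher and 41 lower, so that 76.7% of the calls were higher in MT against 87.3% with TMM. Over all tested genes the same change of scaling moved that percentage from 75.7% to 58.6%.

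In both tissues together, 80 members were higher in MT (2.78%, beside 1.1% of all tested genes) and 9 were lower (0.313%, beside 0.235%). Of the 715 tested genes of haplotype F in the same range, 62 were higher in both and 4 lower. The 80 came from all haplotypes of the members. They were 20 of the 690 tested members of A, 16 of 455 of B, 11 of 655 of C, 20 of 512 of D and 13 of 561 of E. Their median log2 differences were 0.81 in skin and 0.83 in flesh, and 17 of them were at least 2-fold higher in both. Of the 80, 67 had running numbers from 18000 to 27990, 10 lay before and 3 after. The same parts held 2045, 551 and 277 of the tested members. Among the 80 were 5 pairs of directly neighbouring identifiers, a number that was not compared with other genes. A further 7 members (0.244%, beside 0.407% of all tested genes) passed in opposite directions in skin and flesh. Of these 7, 6 were lower in skin and higher in flesh, as were 228 of the 327 such genes in the whole table.

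Among members higher in both tissues with a mean log2 CPM of 1 or more, ranked by the smaller of the 2 log2 differences, Ibat.Brg_v3.12CG028390 came first. It stood at 4.05, 4.59 and 5.62 CPM in WT flesh and at 43.0, 40.5 and 44.0 CPM in MT flesh. In skin it stood at 1.29, 1.62 and 1.85 CPM in WT and at 5.57, 12.3 and 9.66 CPM in MT. The libraries of the 2 lines did not overlap in either tissue, and the MT skin libraries were the most spread. The log2 difference was 3.16 (SE 0.23) in flesh and 2.52 (SE 0.28) in skin.

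Ibat.Brg_v3.12EG022240 came next. It had 1.37, 0.780 and 0.749 CPM in WT flesh and 11.3, 11.5 and 12.6 CPM in MT flesh, a log2 difference of 3.61 (SE 0.32). In skin it had 1.19, 1.25 and 0.695 CPM in WT and 5.46, 4.76 and 3.18 CPM in MT, a log2 difference of 2.07 (SE 0.34). All MT libraries lay above all WT libraries of the same tissue.

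Of the members lower in both tissues, Ibat.Brg_v3.12EG012650 stood at 5.26, 5.94 and 4.35 CPM in WT flesh and at 1.97, 2.00 and 2.72 CPM in MT flesh. In skin it stood at 6.79, 4.86 and 4.64 CPM in WT and at 1.5, 1.36 and 1.59 CPM in MT. The log2 difference was -1.87 (SE 0.30) in skin and -1.22 (SE 0.27) in flesh, with no overlap in either tissue. The flesh call was lost without WT flesh replicate 1 or 2 or MT flesh replicate 1 or 2, where the difference was -1.20, -1.10, -1.13 and -1.14. Ibat.Brg_v3.12BG014790 had log2 differences of -1.30 (SE 0.31) in skin and -1.16 (SE 0.29) in flesh. Its skin call was lost without any 1 of WT skin replicates 2 and 3 and MT skin replicates 1 and 2, and its flesh call without any 1 flesh library or without WT skin replicate 2. The skin difference ranged from -1.64 to -1.02 and the flesh difference from -1.25 to -1.04 with 1 library left out.

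Among called members with a mean log2 CPM of 1 or more and libraries that did not overlap, the 2 largest falls in skin were in haplotype A. Ibat.Brg_v3.12AG022460 stood at 129, 122 and 131 CPM in WT skin and at 7.93, 8.83 and 6.88 CPM in MT skin, 16.1-fold lower (log2 difference -4.01, SE 0.20). In flesh it was low in WT, at 0.152, 0.520 and 0.562 CPM, and at 1.45, 1.59 and 0.651 CPM in MT (log2 difference 1.56, SE 0.36). The gene was thus lower in MT skin and higher in MT flesh, and in MT it remained higher in skin than in flesh, with a log2 difference of 2.65 (SE 0.26, adjusted p = 7.4e-07 by edgeR's test). The other, Ibat.Brg_v3.12AG028750, had 0, 3 and 2 counts in the MT skin libraries against 137, 222 and 145 in WT skin, and its flesh levels were 3.39, 3.94 and 3.23 CPM in WT and 3.69, 3.28 and 3.79 CPM in MT.

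The second member named for a rise in skin, Ibat.Brg_v3.12EG022900, was a flesh gene at low level in skin. It had 1, 0 and 4 counts in WT skin and 6, 14 and 7 in MT skin, a log2 difference of 2.63 (SE 0.66). Its flesh levels were 10.3, 10.9 and 10.7 CPM in WT and 14.6, 15.6 and 17.8 CPM in MT. The skin call was lost without WT skin replicate 1, WT skin replicate 2 or MT skin replicate 2, where the difference was 2.45, 1.88 and 2.20, and without WT skin replicate 3 the difference was 4.34.

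In flesh, 2 members that WT expressed in skin were raised in MT. Ibat.Brg_v3.12CG012560 had 1.11, 2.17 and 1.5 CPM in WT flesh and 106, 105 and 106 CPM in MT flesh, 65.0-fold higher (log2 difference 6.02, SE 0.14). Its skin levels were 356, 319 and 340 CPM in WT and 299, 276 and 274 CPM in MT, which did not overlap but did not pass the test. Ibat.Brg_v3.12DG025250 was without counts in WT flesh and had 23, 35 and 10 counts in MT flesh, at least 25.5-fold higher against 3 counts over the WT flesh group. Its skin levels were 27.2, 28.9 and 34.5 CPM in WT and 50, 38.5 and 35.5 CPM in MT. In both genes MT flesh stayed below the skin of either line.

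Ibat.Brg_v3.12CG028250 went the other way in flesh. It had 1.67, 2.38 and 2.34 CPM in WT flesh and 0.623, 0.359 and 0.770 CPM in MT flesh, a log2 difference of -1.87 (SE 0.35). In skin it had 12.7, 7.94 and 7.18 CPM in WT and 14.6, 11.0 and 10.2 CPM in MT, which overlapped. The skin excess over flesh was 2.11 on the log2 scale (SE 0.30, adjusted p = 4.1e-05) in WT and 4.35 (SE 0.35, adjusted p = 1.0e-07) in MT by edgeR's test.

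**Figure D5:**
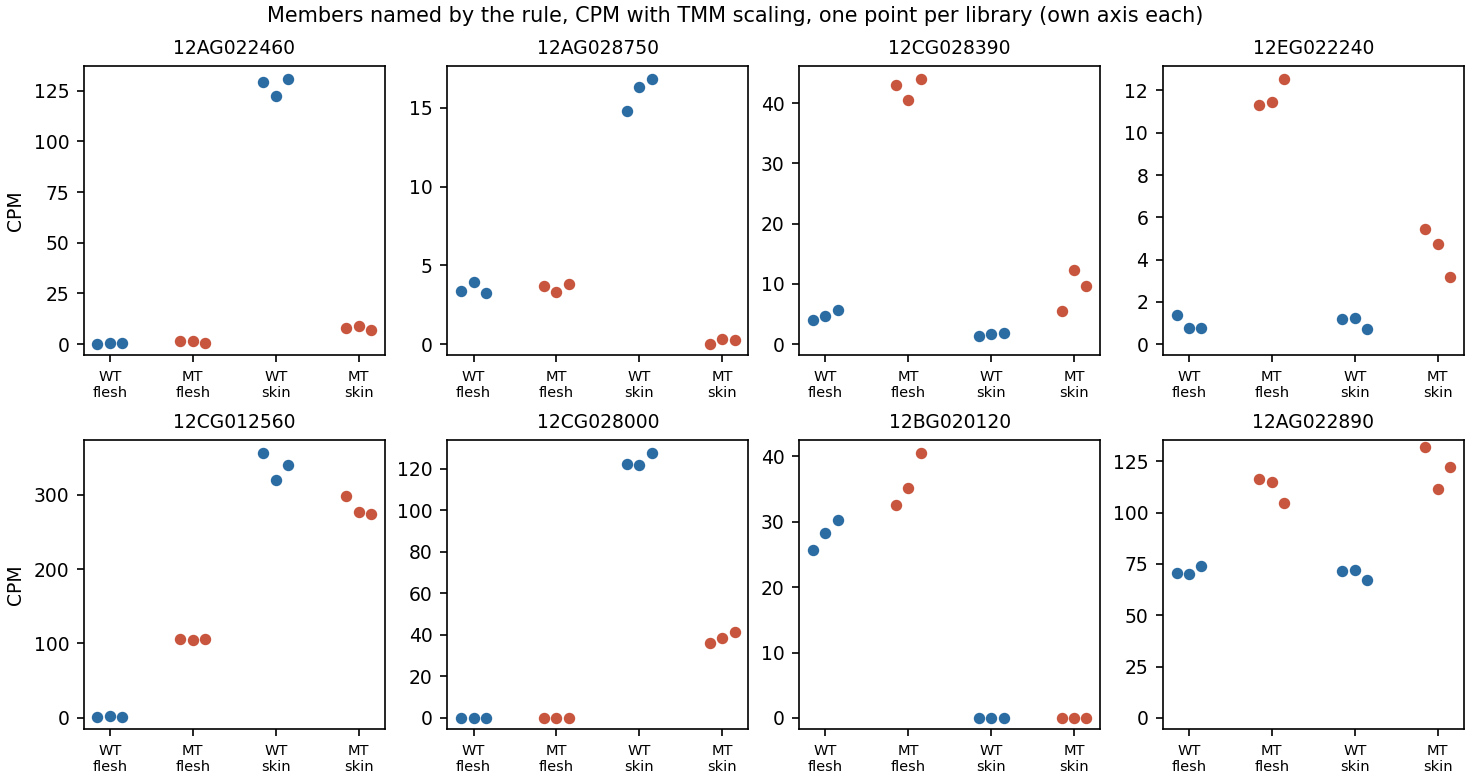
Levels in CPM per library, on a linear axis of its own for each gene, of members named by the rule, in WT and MT flesh and skin. Ibat.Brg_v3.12CG012560 is close to 0 on its axis in WT flesh alone, Ibat.Brg_v3.12AG022460 is high in WT skin alone, and Ibat.Brg_v3.12CG028000 and Ibat.Brg_v3.12BG020120 are each at 0 in 1 tissue.

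The interaction, which is the difference between the lines in skin minus that in flesh, is built from the contrasts used to choose the members and describes them only. It was called in 42 members with a higher value in skin (1.46%, beside 1.46% of all tested genes) and in 73 with a lower one (2.54%, beside 3.08%). The first count was 25 without WT flesh replicate 2 and 27 without MT flesh replicate 3. The largest values with a lower difference in skin were those of Ibat.Brg_v3.12DG025250 and Ibat.Brg_v3.12AG028750. In the other direction, Ibat.Brg_v3.12CG020960 had 2.05, 2.13 and 1.39 CPM in WT skin and 5.36, 3.40 and 4.37 CPM in MT skin. Its flesh levels were 1.57, 1.99 and 1.97 CPM in WT and 1.04, 0.768 and 0.888 CPM in MT. It was thus higher in MT skin and its MT flesh libraries all lay below those of WT, a fall that did not pass the test in flesh.

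The skin and the flesh of a line were compared to ask how the members divide between the tissues, a comparison that the choice of members did not use. With p-values of edgeR's quasi-likelihood test adjusted over all tested genes, 756 members (26.3%) were higher in WT skin than in WT flesh and 650 (22.6%) were lower, beside 26.3% and 24.1% of all tested genes. In MT 760 members (26.5%) were higher in skin and 679 (23.6%) lower, beside 25.5% and 25.2%. These shares were close to those of the whole table. At least 4-fold apart in WT were 447 members higher and 289 lower in skin (15.6% and 10.1%, beside 15.2% and 9.88%), and in MT 418 and 342 (14.5% and 11.9%, beside 14.0% and 11.5%). The balance of directions rested on the scaling, since with library totals 637 were higher and 888 lower in WT skin and 636 and 882 in MT skin, where the median of all genes moved to -0.36 and -0.34. With library totals, 21.4% of all tested genes were higher and 32.8% lower in WT skin, and 21.2% and 32.1% in MT skin.

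Some members were found in 1 tissue alone. Of 460 genes in the table with more than 10 CPM in the skin of both lines and at most 3 counts over the 6 flesh libraries, 8 were members, and of 73 with the reverse pattern 5 were. These 13 genes, a class defined after the values were seen, came from all 5 haplotypes. Members made up 4099 of the 117705 genes of the table with at least 10 counts. The genes named here as found in 1 tissue, or nearly so, were picked on this same contrast. Their folds and p-values therefore describe them and test nothing further. Ibat.Brg_v3.12AG018160 had 123, 110 and 108 CPM in WT skin and 136, 146 and 136 CPM in MT skin, and no count in any flesh library. It was at least 2429-fold higher in skin than in flesh in WT (adjusted p = 3.9e-12) and at least 2582-fold in MT (adjusted p = 4.3e-12), by edgeR's test and against 3 counts over a flesh group.

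Ibat.Brg_v3.12CG028000 had 122, 122 and 128 CPM in WT skin, 36.3, 38.7 and 41.3 CPM in MT skin and no count in flesh. It was at least 2652-fold higher in skin than in flesh in WT (adjusted p = 4.4e-12) and at least 719.8-fold in MT (adjusted p = 3.1e-11) by edgeR's test. Its MT skin libraries all lay below those of WT skin, with a log2 difference of -1.68 (SE 0.09). Among the other skin-only members, Ibat.Brg_v3.12CG012800 had 43.0 CPM ± 5.65 in WT skin and 11.1 CPM ± 1.32 in MT skin, and Ibat.Brg_v3.12DG024320 had 43.7 CPM ± 5.26 and 17.2 CPM ± 4.45 (SD, n = 3). These 3 of the 8 were called lower in MT skin, and none was called higher. The remaining skin-only members were Ibat.Brg_v3.12BG012730, Ibat.Brg_v3.12DG012500, Ibat.Brg_v3.12DG017710 and Ibat.Brg_v3.12EG022630. Calls between the lines were not counted among the skin-only genes outside the members. Whether lower calls in MT skin are particular to the members or shared by skin-only genes of the whole table was therefore not tested.

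In flesh, Ibat.Brg_v3.12BG020120 had 25.7, 28.3 and 30.3 CPM in WT and 32.6, 35.2 and 40.5 CPM in MT, and no count in any skin library. It was at least 295-fold lower in skin in WT (adjusted p = 1.9e-09) and at least 309-fold in MT (adjusted p = 1.9e-09) by edgeR's test. The other flesh-only members were Ibat.Brg_v3.12CG020170, Ibat.Brg_v3.12CG027820, Ibat.Brg_v3.12DG024140 and Ibat.Brg_v3.12EG018750, whose levels in WT flesh lay between 14.9 and 27.9 CPM. None of the 5 was called between the lines.

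A pair of further members came close to that pattern. Ibat.Brg_v3.12CG022780 had 34.4, 33.2 and 32.7 CPM in WT flesh and 0, 2 and 0 counts in WT skin. From the counts alone flesh was 526-fold higher, with a 95% interval of 146 to 4349 (exact binomial). The interval was made from counts pooled over the libraries of each group, so it holds counting error and not the spread among libraries. The fold fitted by edgeR was 467, with an adjusted p of 1.5e-10. Without WT skin replicate 2, which held both counts, it had no count in WT skin. In MT, with 2, 4 and 0 counts in skin, the fold fitted by edgeR was 131. Ibat.Brg_v3.12AG020500 had 32.8, 35.9 and 32.2 CPM in MT flesh and 0, 1 and 0 counts in MT skin. From the counts alone flesh was 866-fold higher, with an interval of 155 to 34210 made in the same way. The fold fitted by edgeR was 710, with an adjusted p of 8.8e-11. The single count came from MT skin replicate 2. In WT, with 4, 1 and 2 counts in skin, the fold fitted by edgeR was 107.

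The most abundant member per kb of length was taken from each haplotype. In A it was Ibat.Brg_v3.12AG022890, a model of 231 bases with a mean of 407 CPM per kb. Its levels were 71.7, 71.9 and 67.0 CPM in WT skin, 132, 112 and 122 CPM in MT skin, 70.3, 70.2 and 74.0 CPM in WT flesh and 116, 115 and 105 CPM in MT flesh. MT stood above WT without overlap in both tissues, at log2 differences of 0.80 (SE 0.08) in skin and 0.65 (SE 0.07) in flesh, while skin and flesh of WT differed by -0.03 (SE 0.08, adjusted p = 0.80 by edgeR's test).

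In B and D the most abundant members, Ibat.Brg_v3.12BG022340 and Ibat.Brg_v3.12DG021560, both had 1257 bases. Ibat.Brg_v3.12BG022340 had 175, 203 and 223 CPM in WT flesh and 290, 302 and 300 CPM in MT flesh, and 145, 117 and 146 CPM in WT skin and 212, 175 and 180 CPM in MT skin. Ibat.Brg_v3.12DG021560 had 282, 279 and 313 CPM in WT flesh and 429, 385 and 387 CPM in MT flesh, and 161, 191 and 156 CPM in WT skin and 222, 213 and 197 CPM in MT skin. Both were higher in MT in each tissue without overlap, and both were lower in skin than in flesh. The log2 difference between WT skin and WT flesh was -0.56 (SE 0.10, adjusted p = 0.00038) for Ibat.Brg_v3.12BG022340 and -0.78 (SE 0.08, adjusted p = 1.7e-06) for Ibat.Brg_v3.12DG021560 by edgeR's test. The skin call between the lines was lost for Ibat.Brg_v3.12BG022340 without WT skin replicate 2 (0.38) or MT skin replicate 1 (0.39). For Ibat.Brg_v3.12DG021560, at 0.31 (SE 0.08), it was lost with library totals, with the replicate block and without WT skin replicate 1 or 3 or MT skin replicate 1 or 2.

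Ibat.Brg_v3.12CG027490, the leading member of C at 197 CPM per kb, was a skin gene. It had 761, 832 and 783 CPM in WT skin and 671, 658 and 666 CPM in MT skin, and 182, 218 and 237 CPM in WT flesh and 279, 275 and 290 CPM in MT flesh. Skin exceeded flesh by 1.90 on the log2 scale in WT (SE 0.08, adjusted p = 4.5e-11) and by 1.24 in MT (SE 0.08, adjusted p = 4.9e-09) by edgeR's test. The libraries of the lines did not overlap in either tissue, with MT lower in skin (log2 difference -0.25, SE 0.08, which did not pass) and higher in flesh (0.41, SE 0.08). The skin difference passed with library totals, with no filter on low counts, with DESeq2 and without WT flesh replicate 1 or 3.

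Ibat.Brg_v3.12EG025840, the leading member of E with 360 bases and 404 CPM per kb, was a flesh gene. It had 212, 268 and 242 CPM in WT flesh and 276, 271 and 275 CPM in MT flesh, and 30.4, 29.2 and 33.3 CPM in WT skin and 33.5, 32.3 and 39.8 CPM in MT skin. Skin stood below flesh by the same amount in both lines, at -2.96 in WT (SE 0.10, adjusted p = 4.6e-12) and -2.96 in MT (SE 0.10, adjusted p = 5.5e-12) by edgeR's test. The lines did not pass the test in either tissue, at 0.19 (SE 0.10) in skin and 0.19 (SE 0.09) in flesh.

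Loss of a transcript from a whole line was rare in the whole table and not among the members alone. Of 117705 genes with at least 10 counts, 4099 were members and 3210 were genes of the same haplotypes below 12020. Of 115 genes in the table present in all 6 WT libraries with at most 3 counts over the 6 MT libraries, 2 were members, and 16 were genes of the same haplotypes below 12020. These members, named after their values were seen, were Ibat.Brg_v3.12DG024550 and Ibat.Brg_v3.12EG024520. Ibat.Brg_v3.12DG024550 had 25, 21 and 24 counts in WT flesh, 7, 13 and 12 in WT skin and 0 in all MT libraries. Ibat.Brg_v3.12EG024520 had 1, 2 and 5 counts in WT flesh and 1, 2 and 2 in WT skin, and 3 counts over all MT libraries, too few to tell the lines apart by level. Of 28 genes with the reverse pattern, Ibat.Brg_v3.12EG022950 was the 1 member, with 1 count over the WT libraries and between 1 and 10 in each MT library.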

How the data were processed

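RNA-seq of the flesh and skin of WT and MT storage roots gave 12 libraries, 3 in each of 4 groups, grouped by their titles. The authors deposited raw counts per gene and library with a gene length in bases, per the file headers. The submitters' processing notes list HISAT2 2.0.5, featureCounts and DESeq2 1.40.2. Build, annotation, strandedness and how multiply matching reads were handled: not given in the sources used here. RNA was depleted of ribosomal RNA and selected for poly(A), per the labels' protocols.

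From the deposited counts, filterByExpr of edgeR 4.0.16 (R 4.3.3) selected genes at a minimum count of 10. After TMM scaling, 1 model of the 4 groups was fitted and 5 contrasts were tested by the quasi-likelihood test, adjusted by Benjamini-Hochberg over all 80351 tested genes at 0.05. SEs are approximate, from the log2 difference and the F statistic. Where a group had no counts, the fold is a minimum that assumes 3 counts in that group and counting error only. The tests were checked on simulated data. Alternatives were library totals, TMM without number 12, no filter, DESeq2 1.42.0, a replicate block, a start of the range at 16000, other summaries and leaving out each library.

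The members and lists were chosen with earlier results of these data known. Members were named by rule: per contrast, among called members whose mean log2 CPM was 1 or more and, except for the interaction, libraries that did not overlap, up to 2 with the largest and 2 with the most negative log2 difference; for changes shared by both tissues, the same with no condition on overlap, ranked by the difference nearer to 0; and the most abundant member per kb of each haplotype. No identifier matched the table of annotated genes from assembly IBA_r1.0, so names, pathway lists and sequences were not used here.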

Additional observations from a re-analysis of the deposited data

Results flagged for a closer look

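For 7 of the 21 named members the tissues differed in how far MT stood from WT, by edgeR's test of the interaction at an adjusted p of 0.05. Because these genes were chosen on the same contrasts, the values describe them and support nothing further. The log2 difference in skin minus that in flesh was -6.71 for Ibat.Brg_v3.12DG025250, which had no count in WT flesh, so that this value depends on the prior count. It was -6.32 for Ibat.Brg_v3.12AG028750, with 5 counts in MT skin, and -6.28 for Ibat.Brg_v3.12CG012560, which was near 1.59 CPM in WT flesh and above 100 CPM elsewhere. Ibat.Brg_v3.12AG022460 had -5.56, being lower in MT skin and higher in MT flesh. Ibat.Brg_v3.12CG027490 had -0.66, with MT below WT in skin and above it in flesh. In the other direction Ibat.Brg_v3.12CG020960 had 2.26 and Ibat.Brg_v3.12CG028250 had 2.23, both with MT flesh below WT flesh. No cause was tested.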

How the results depend on the processing

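With library totals, no filter on low counts and DESeq2, the members lower in MT flesh numbered 41, 47 and 50 in place of 24. Of all tested genes, 1.21% were lower in MT flesh in the main fit, 2.13% with library totals and 2.28% with DESeq2. DESeq2 gave 85 members with a higher interaction in place of 42 and 117 with a lower one in place of 73, and no filter gave 110 of the latter. With DESeq2 the interaction over all tested genes also went up, from 1.46% to 2.77% higher and from 3.08% to 4.48% lower. The same percentages are not given for no filter. The median log2 difference of the members in skin, 0.09, was 0.043 with library totals, 0.00 with no filter, 0.21 at a mean log2 CPM of 3 and above and 0.023 as a mean. In flesh the median, 0.10, was 0.0020 with library totals, 0.078 with no filter, 0.12 from running number 16000, 0.16 at a mean log2 CPM of 3 and above and 0.17 as a mean. The causes were not tested.

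With 1 library left out, the skin median ranged from 0.040 to 0.10 and the flesh median from 0.076 to 0.13. Members higher in MT skin ranged from 139 to 210 and lower from 48 to 76; in MT flesh they ranged from 124 to 172 and from 11 to 29. Members higher in skin ranged from 693 to 780 in WT and from 683 to 770 in MT, and lower from 586 to 683 and from 608 to 711. The interaction gave 25 to 42 higher and 53 to 73 lower. Percentages of all tested genes were not taken for these fits or for the replicate block.

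Libraries with the same replicate number showed no shared deviation, with 12 correlations between -0.04 and 0.03 where 0.1 was needed. The numbers were therefore not used to pair samples, although such correlations cannot settle whether these libraries share a plant. With the replicate block, members higher and lower in MT numbered 173 and 66 in skin and 152 and 20 in flesh, skin against flesh gave 711 and 630 in WT and 727 and 660 in MT, and the interaction 32 and 60. For the named members, 580 of 612 alternative values kept their direction and side of the threshold, 27 fell short of it, 5 passed it and 0 changed direction; the interaction of Ibat.Brg_v3.12CG020960 had an adjusted p of 0.056 with no filter in edgeR. Skin libraries, at 8.51 to 15.1 M counts, resolve low members less well than flesh libraries.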

Other observations

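Of 2988 members with at least 60 counts, 15 (0.502%) had at least 80% of their counts in 1 library, beside 426 of 84221 genes of the whole table (0.506%). In WT the share of counts of the members in skin was 1.22 times that in flesh for haplotype C and 1.09 times for E, and 0.962 for A, 0.863 for B and 0.962 for D.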
